A study of Mus musculus with 10 samples.

Results

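Gluconeogenesis, the making of glucose from lactate, glycerol and amino acids, was followed here through 10 genes in the livers of Pml KO and Pml wt mice. The 10 genes code for the enzymes and transporter Pck1, G6pc, Fbp1, Pcx and Slc37a4, the aminotransferases Gpt and Got1, the coactivators Ppargc1a and Crtc2, and the transcription factor Creb1. They were chosen by gene symbol, each was read by 1 probe set, and all 10 of 10 were among the 13942 genes tested, of 22180 genes with a probe set of their own. The question was how a short fast and the loss of Pml, the gene of the organiser of PML nuclear bodies, bear on liver gene expression.

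All mice were female, of the BALB/cByJ strain and 3 months old. The groups were Pml KO with food removed for 6 h (fasted knockout, 3 arrays), Pml wt with food removed for 6 h (fasted wild type, 3 arrays), Pml KO fed ad libitum (fed knockout, 2 arrays) and Pml wt fed ad libitum (fed wild type, 2 arrays). Whole liver RNA was hybridised to Affymetrix Mouse Gene 2.1 ST arrays. The labels do not give the Pml allele, the hour of collection or whether each array is a separate animal, so p-values measure only the spread between these samples, which may be technical. In whole liver, fewer cells of a type and less RNA per cell cannot be told apart.

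In the fasting liver, pyruvate carboxylase (Pcx) turns pyruvate into oxaloacetate in mitochondria, and phosphoenolpyruvate carboxykinase (Pck1) turns oxaloacetate into phosphoenolpyruvate. Fructose bisphosphatase (Fbp1) and glucose-6-phosphatase (G6pc) reverse the remaining one-way steps of glycolysis, and Slc37a4 carries glucose-6-phosphate into the endoplasmic reticulum, where G6pc works. Glucagon raises cAMP, which activates the transcription factor CREB (Creb1) and its coactivator Crtc2. These in turn raise Pck1, G6pc and Ppargc1a, the coactivator PGC-1alpha, while insulin restrains the same genes through FoxO1. Much of this control acts on proteins and is not seen in transcript levels.

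Upstream sequences of 5 of these genes are shown because the known cAMP and insulin response elements of the pathway lie in such regions. The set of promoter sequences used here (RefSeq, build GRCm38.p6) had entries for 8 of the 10 genes. Each window below holds the 250 bases before a start site, 5′ to 3′. Pcx and Creb1 were shown because they passed the test in at least 1 comparison, and Pck1, G6pc and Ppargc1a were added, after their values were seen, as the textbook targets of cAMP and FoxO1. Capitals mark matches on either strand to TGACG (the core of the cAMP response element), TGACGTCA (the full palindrome, which holds that core), TGTTTAC (a forkhead element), CAAAACA (an insulin response sequence core) and TATAAA (the TATA box).
Pck1, chr2:173152823-173153072, plus strand: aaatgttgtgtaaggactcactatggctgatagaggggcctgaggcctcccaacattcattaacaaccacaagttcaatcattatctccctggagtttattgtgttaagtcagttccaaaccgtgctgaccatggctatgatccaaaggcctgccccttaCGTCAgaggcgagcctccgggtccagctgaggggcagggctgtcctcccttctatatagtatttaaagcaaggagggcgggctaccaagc
G6pc, chr11:101367466-101367715, plus strand: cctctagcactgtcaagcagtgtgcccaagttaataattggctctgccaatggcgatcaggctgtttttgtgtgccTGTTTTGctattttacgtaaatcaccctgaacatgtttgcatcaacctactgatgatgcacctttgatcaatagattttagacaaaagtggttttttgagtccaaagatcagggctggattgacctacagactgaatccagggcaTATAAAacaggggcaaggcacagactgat
Ppargc1a, chr5:51567726-51567975, minus strand: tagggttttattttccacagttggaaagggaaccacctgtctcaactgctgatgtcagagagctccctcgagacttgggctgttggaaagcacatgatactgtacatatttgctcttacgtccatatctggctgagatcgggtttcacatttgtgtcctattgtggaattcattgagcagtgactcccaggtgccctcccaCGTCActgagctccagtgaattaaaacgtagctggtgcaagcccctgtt
Pcx, first start site, chr19:4510222-4510471, plus strand: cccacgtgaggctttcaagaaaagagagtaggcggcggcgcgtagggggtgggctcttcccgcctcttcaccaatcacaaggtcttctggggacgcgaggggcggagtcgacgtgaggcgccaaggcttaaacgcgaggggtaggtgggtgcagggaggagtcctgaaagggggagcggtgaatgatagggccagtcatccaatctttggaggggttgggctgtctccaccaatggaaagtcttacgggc
Pcx, second start site, chr19:4594069-4594318, plus strand: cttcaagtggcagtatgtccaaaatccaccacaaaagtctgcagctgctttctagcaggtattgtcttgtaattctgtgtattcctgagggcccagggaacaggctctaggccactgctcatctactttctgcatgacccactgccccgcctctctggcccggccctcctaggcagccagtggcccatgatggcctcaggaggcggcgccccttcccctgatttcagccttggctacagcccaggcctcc
Creb1, chr1:64532554-64532803, plus strand: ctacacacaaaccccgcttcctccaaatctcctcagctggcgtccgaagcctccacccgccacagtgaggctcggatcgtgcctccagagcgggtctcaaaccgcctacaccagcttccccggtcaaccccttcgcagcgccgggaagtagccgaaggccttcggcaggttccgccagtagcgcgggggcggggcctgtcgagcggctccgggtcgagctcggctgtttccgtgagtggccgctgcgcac
The Pck1 window held 1 cAMP core, 86 to 90 bases before the start, and the Ppargc1a window held 1, 45 to 49 bases before it. The G6pc window held an insulin response core 168 to 174 bases before the start and a TATA box 24 to 29 bases before it. Of all 32851 promoter windows of this length, 17.8% held the cAMP core, 1.55% the palindrome, 3.17% the forkhead element, 5.56% the insulin response core and 12.4% the TATA box. None of these motifs was in the Pcx and Creb1 windows, which says only that the letters are not there.

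Several facts of the series touch the results. Pml log2 intensity lay between 6.05 and 6.91 on the knockout arrays and between 7.50 and 8.37 on the wild type arrays. All 6 hepatocyte markers on the array, such as Alb (12.98 to 13.09), were above the array median on every array. The fasted knockout arrays stood apart from one another in genes of the circadian clock. The clock activator gene Arntl had a log2 intensity of 4.60, 4.53 and 8.87 in fasted knockout replicates 1, 2 and 3, against 9.29, 9.04 and 9.16 in fasted wild type. It was 5.72 and 6.02 in fed knockout and 7.50 and 7.10 in fed wild type, so that fasted and fed arrays also differed in clock state in wild type. Of 13 tested clock genes, 3 rose and 2 fell with the fast in wild type, where 21.4% of all genes were called. With the fast in knockout 0 of them were called (limma, 2 at an unadjusted p under 0.05), against 1.68% of all genes. That count compares group means over split arrays, so it does not show that clock genes were unchanged on each fasted knockout array. The clock output gene Dbp was 10.05, 9.80 and 6.00 in fasted knockout replicates 1, 2 and 3, against 9.88 and 10.02 in fed knockout. The members' calls that rest on the fasted knockout are also given without replicates 1 and 2, as are some other differences and some list counts.

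Over the 10 arrays the distance between the highest and lowest log2 intensity of a gene ran between 0.32 for Fbp1 and 1.34 for Ppargc1a, with a median of 0.53. The same median was 0.53 over the 3758 tested genes of the same brightness and 0.68 over all tested genes, so that the members ranged as widely as genes of like brightness. Got1 (1.10) and Ppargc1a ranged more widely than the other 8. All 10 were above the median of every array. The highest Pck1 value was 12.48, below the 13.20 to 13.73 of the brightest probe set of an array. Probe sets differ in how strongly they bind, so levels were compared within a gene and not between genes.

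**Figure D1:**
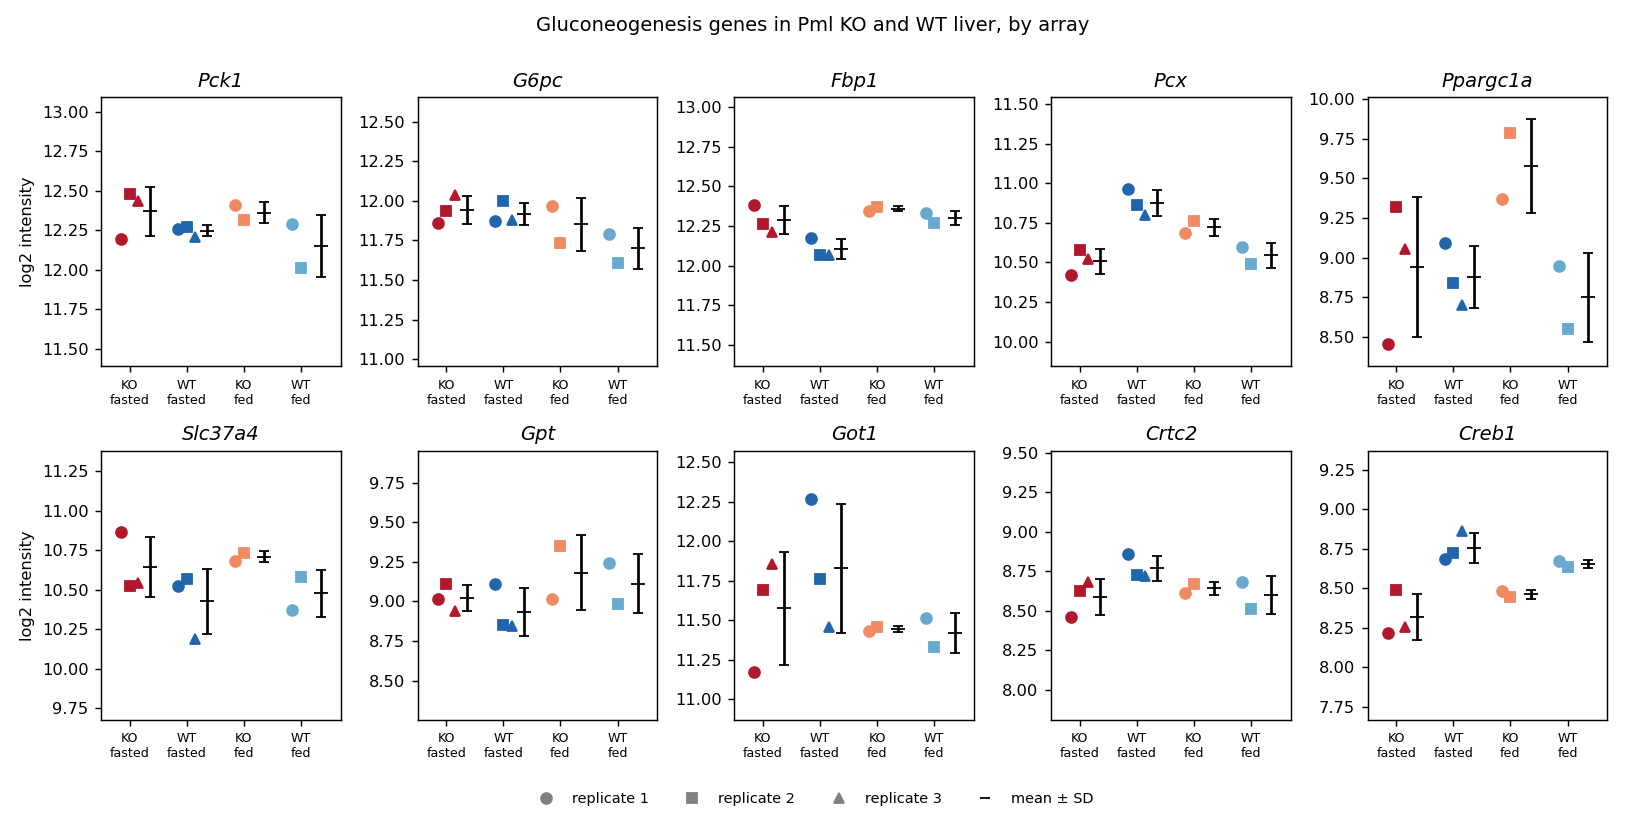
Log2 intensity (vertical axis) of the 10 gluconeogenesis genes on each of 10 arrays, by group (horizontal axis), with group mean and SD in black. Each panel spans at least 1.7 log2 units. Pck1 and G6pc overlap between fasted and fed knockout, Pcx is highest in fasted wild type, and Creb1 is lowest in 2 fasted knockout arrays.

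With a fast of 6 h in wild type, Pcx rose and the other 9 genes did not pass the test. For the rate-setting enzymes Pck1 and G6pc the 95% intervals ended at rises of 1.30-fold and 1.39-fold. Pck1 log2 intensity was 12.26, 12.27 and 12.21 in fasted wild type, against 12.29 and 12.01 in fed wild type. The groups overlapped, because fed replicate 1 was as high as the fasted arrays. The log2 difference was 0.10 (SE 0.13, 95% interval -0.18 to 0.38, limma adjusted p = 0.629).

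G6pc was 11.88, 12.00 and 11.88 in fasted wild type, against 11.79 and 11.61 in fed wild type. All fasted arrays lay above both fed arrays, yet the difference of 0.22 (SE 0.12, interval -0.05 to 0.48, adjusted p = 0.221) did not pass the test. All intervals here are of the limma fit. Slc37a4, the partner of G6pc, was 10.52, 10.57 and 10.19 in fasted wild type, against 10.37 and 10.58 in fed wild type, with overlap and a difference of -0.05 (interval -0.39 to 0.29). Fbp1 was 12.18, 12.07 and 12.07 in fasted wild type, against 12.33 and 12.27 in fed wild type, a difference of -0.20 (SE 0.10, adjusted p = 0.189). Its arrays did not overlap, in the direction opposite to a fasting rise.

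Pcx was the 1 gene of the 10 that passed in this comparison. Its log2 intensity was 10.97, 10.87 and 10.80 in fasted wild type, against 10.60 and 10.49 in fed wild type, and the groups did not overlap. The rise was 1.26-fold (log2 difference 0.33, SE 0.10, 95% interval 0.10 to 0.56, adjusted p = 0.0463). The call was lost in 9 of 10 omissions of a single array, all but that of fasted knockout replicate 1, with log2 differences between 0.28 and 0.39 there (adjusted p between 0.0112 and 0.201 over the 21 alternatives).

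The aminotransferases feed carbon of alanine and aspartate into the pathway. Got1 had a log2 intensity of 12.27, 11.76 and 11.46 in fasted wild type, against 11.51 and 11.33 in fed wild type, and its 3 fasted arrays spread more widely than the groups were apart (difference 0.41, SE 0.25, interval -0.14 to 0.96). Gpt was 9.11, 8.85 and 8.84 in fasted wild type, against 9.24 and 8.98 in fed wild type, and differed by -0.18 (interval -0.50 to 0.14) with overlap. Among the regulators, Ppargc1a was 9.09, 8.84 and 8.70 in fasted wild type, against 8.95 and 8.55 in fed wild type, with overlap (0.13, SE 0.25, interval -0.43 to 0.69, adjusted p = 0.756). Crtc2 was 8.86, 8.72 and 8.72 in fasted wild type, against 8.68 and 8.51 in fed wild type (0.17, interval -0.08 to 0.42). Creb1 was 8.69, 8.72 and 8.86 in fasted wild type, against 8.67 and 8.63 in fed wild type (0.10, interval -0.15 to 0.36). Neither overlapped and neither passed.

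Of the 10 genes 1 was called, higher, whereas 21.4% of all genes tested were called in this comparison and 8.23% were called higher. The arrays of 5 of the 10 did not overlap between the groups, against 52.7% of all genes. The median log2 difference of the 10 was 0.12, against -0.02 over all genes. All 10 intervals lay within a 2-fold change in either direction, as did 83.4% of the intervals of all genes; this limit of 2-fold was chosen after the values were seen. Clock genes differed between the same 2 groups, as given above, so that the fast and the clock cannot be told apart here. The summed intensity of 7 Kupffer cell markers, all above the array median, was 2703 to 2793 in fasted wild type and 2841 to 3600 in fed wild type, without overlap. Sums of the cholangiocyte (280 to 308 against 258 to 268), stellate cell (5077 to 5353 against 4978 to 4994), adipocyte (374 to 473 against 244 to 311), B cell (33.5 to 48.7 against 85.3 to 101) and pancreas markers (94.1 to 143 against 154 to 173) did not overlap either. Nor did the sum of the 6 hepatocyte markers, at 29261 to 29675 in fasted wild type and 28589 to 29141 in fed wild type. Above the array median on every array were 1 of 4 cholangiocyte, 5 of 6 stellate cell, 1 of 3 adipocyte, 0 of 3 B cell and 0 of 4 pancreas markers. A sum weighs bright genes most and can hide markers that go the other way. Of 5 tested stellate cell markers 2 were higher in fasted wild type, 2 were called lower and 0 higher, and the median log2 difference was -0.07. Of 6 hepatocyte markers 3 were higher (median 0.02). The part of all these markers in the result was not tested.

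In Pml KO liver none of the 10 genes passed the test with the fast (0 of 10, against 1.68% of all genes tested; limma gave 1 gene at an unadjusted p under 0.05). Pck1 was 12.19, 12.48 and 12.43 in fasted knockout, against 12.41 and 12.31 in fed knockout. The groups overlapped and the difference was 0.01 (SE 0.13, interval -0.27 to 0.29, adjusted p = 0.979). G6pc was 11.86, 11.94 and 12.04 in fasted knockout, against 11.97 and 11.73 in fed knockout, also overlapping (0.09, SE 0.12, interval -0.17 to 0.36).

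Ppargc1a had the largest difference of the 10 with the fast in knockout. Its log2 intensity was 8.45, 9.32 and 9.05 in fasted knockout, against 9.37 and 9.79 in fed knockout. The arrays did not overlap, though fasted replicate 2 lay close to fed replicate 1. The difference was -0.64 (SE 0.25, interval -1.20 to -0.07, unadjusted p = 0.0304 and limma adjusted p = 0.209), below the fed level where a fasting rise of this coactivator is the textbook response. Without fasted knockout replicates 1 and 2 the difference was -0.53 (adjusted p = 0.291). Ppargc1a was the gene whose interval reached past a 2-fold change, while the intervals of the other 9 lay within it.

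Pcx was 10.42, 10.58 and 10.52 in fasted knockout, against 10.69 and 10.76 in fed knockout. All fasted arrays lay below both fed arrays, the reverse of wild type, with a difference of -0.22 (SE 0.10, interval -0.45 to 0.02, adjusted p = 0.293) and one of -0.20 (adjusted p = 0.461) without fasted knockout replicates 1 and 2. The arrays of 2 of the 10 genes, Pcx and Ppargc1a, did not overlap, against 36.8% of all genes. Got1 spread most among the remaining genes, at 11.17, 11.69 and 11.86 in fasted knockout, against 11.43 and 11.46 in fed knockout. Slc37a4 was 10.86, 10.52 and 10.54 in fasted knockout, against 10.68 and 10.73 in fed knockout. Gpt was 9.02, 9.11 and 8.94 in fasted knockout, against 9.01 and 9.35 in fed knockout. These 3 overlapped. Fbp1 (-0.07), Slc37a4 (-0.06), Gpt (-0.16), Got1 (0.13), Crtc2 (-0.05) and Creb1 (-0.14) each had an interval that included 0. The median of the 10 was -0.07, against 0.01 over all genes. Marker sums of cholangiocytes (241 to 263 in fasted and 223 to 239 in fed knockout), stellate cells (5026 to 5287 and 4271 to 4942), B cells (72.9 to 120 and 52.6 to 66.8) and kidney cortex (145 to 161 and 120 to 121) did not overlap, and their part was not tested. Although the stellate cell sum was higher in fasted knockout, only 2 of 5 tested stellate cell markers were higher (median log2 difference -0.19).

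**Figure D2:**
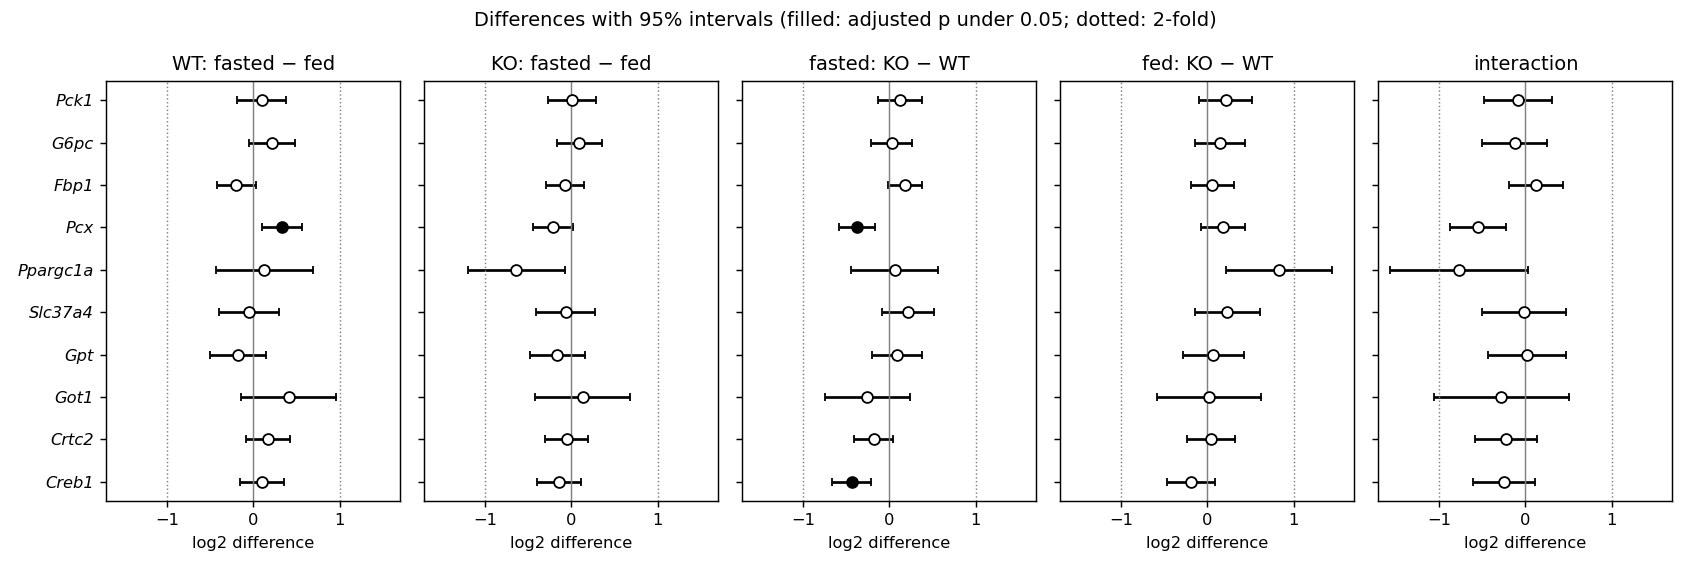
Log2 differences of the 10 genes with 95% intervals of the limma fit (horizontal axis) in the 5 comparisons, 1 panel each. Filled points have an adjusted p under 0.05, which holds for Pcx in wild type fasting and for Pcx and Creb1 between fasted knockout and fasted wild type; dotted lines mark a 2-fold change.

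Between fasted knockout and fasted wild type, Creb1 and Pcx were lower in knockout and the other 8 genes did not pass. Creb1, the transcription factor at the end of the glucagon and cAMP signal, had a log2 intensity of 8.22, 8.49 and 8.25 in fasted knockout, against 8.69, 8.72 and 8.86 in fasted wild type. No knockout array reached the lowest wild type array. The difference was -0.44 (SE 0.10, interval -0.66 to -0.21, adjusted p = 0.0282). Fasted knockout thus stood at 73.9% of fasted wild type. Without fasted knockout replicates 1 and 2, where 1 array stands for that group, the difference was -0.50. Clock genes also differed between fasted knockout and fasted wild type, and their part in the Creb1 and Pcx differences was not tested.

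Pcx was 10.42, 10.58 and 10.52 in fasted knockout, against 10.97, 10.87 and 10.80 in fasted wild type, with no overlap. The difference was -0.37 (SE 0.09, interval -0.58 to -0.16, adjusted p = 0.0337), with fasted knockout at 77.3% of fasted wild type. Without fasted knockout replicates 1 and 2 it was -0.36 (adjusted p = 0.211). With those 2 arrays left out limma called 0 of all genes in this comparison (2547 at an unadjusted p under 0.05). Over omissions of 1 array, the call of Creb1 was lost in 5, namely fasted knockout replicates 1 and 3 and any fasted wild type array (log2 difference between -0.47 and -0.38 there). That of Pcx was lost in 7: the same 5 arrays and either fed knockout array (-0.41 to -0.33).

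Pck1, G6pc and Fbp1 were not called here. Pck1 differed by 0.12 (SE 0.11, interval -0.13 to 0.37), G6pc by 0.03 (SE 0.11, interval -0.21 to 0.26) and Fbp1 by 0.18 (SE 0.09, interval -0.02 to 0.38). The Fbp1 arrays did not overlap, with 12.39, 12.27 and 12.21 in fasted knockout and 12.18, 12.07 and 12.07 in fasted wild type. Crtc2 did not overlap either, with 8.46, 8.62 and 8.68 in fasted knockout against 8.86, 8.72 and 8.72 in fasted wild type (-0.18, SE 0.10, adjusted p = 0.264). Ppargc1a (0.06), Slc37a4 (0.22), Gpt (0.09) and Got1 (-0.25) overlapped.

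With 2 of 10 genes called, both lower, the share of the 10 stood beside 11.1% of all genes called and 4.43% called lower. The arrays of 4 of the 10 did not overlap, against 33% of all genes. All 10 intervals lay within a 2-fold change, as did 91.2% of the intervals of all genes. Markers of other cells moved with this comparison. The 7 Kupffer cell markers summed to 3204 to 3652 in fasted knockout and 2703 to 2793 in fasted wild type, and the 4 cholangiocyte markers on the array to 241 to 263 in fasted knockout and 280 to 308 in fasted wild type. B cell markers, with 0 of 3 above the array median on all arrays, summed to 72.9 to 120 in fasted knockout and 33.5 to 48.7 in fasted wild type. The 4 kidney cortex markers, 1 of them above the array median on all arrays, summed to 145 to 161 in fasted knockout and 118 to 133 in fasted wild type. Their part in the results was not tested. The summed hepatocyte markers overlapped, at 27360 to 29879 in fasted knockout and 29261 to 29675 in fasted wild type.

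Between fed knockout and fed wild type none of the 10 genes was called (0 of 10, against 0.0861% of all genes tested; limma gave 1 gene at an unadjusted p under 0.05). That gene was Ppargc1a, at 9.37 and 9.79 in fed knockout against 8.95 and 8.55 in fed wild type, without overlap. The difference was 0.83, or 1.78-fold (SE 0.28, interval 0.21 to 1.45, unadjusted p = 0.0136, adjusted p = 0.397), and over 21 alternatives it lay between 0.62 and 1.04 with 0 calls. Pck1 was 12.41 and 12.31 in fed knockout, against 12.29 and 12.01 in fed wild type, a difference of 0.21 (SE 0.14, interval -0.10 to 0.52) with arrays that only just parted. Creb1 was 8.48 and 8.44 in fed knockout, against 8.67 and 8.63 in fed wild type, so that its arrays lay lower in knockout with food as well. Crtc2 was 8.61 and 8.67 in fed knockout, against 8.68 and 8.51 in fed wild type, with overlap. Fbp1 was 12.35 and 12.37 in fed knockout, against 12.33 and 12.27 in fed wild type. Pcx differed by 0.18, Slc37a4 by 0.23, G6pc by 0.15 and Creb1 by -0.19, each with an interval that included 0. The arrays of 6 of the 10 did not overlap, against 39.9% of all genes with groups of 2. Arntl also lay lower in fed knockout, at 5.72 and 6.02 against 7.50 and 7.10 in fed wild type. That difference was not called (log2 difference -1.43, interval -3.99 to 1.14, limma adjusted p = 0.814). The arrays of 10 of 13 tested clock genes did not overlap, 0 of the 13 were called, and their part was not tested. Marker sums of cholangiocytes (223 to 239 in fed knockout and 258 to 268 in fed wild type), stellate cells (4271 to 4942 and 4978 to 4994) and B cells (52.6 to 66.8 and 85.3 to 101) did not overlap, and their part was not tested.

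The interaction tests whether the fast acted differently in knockout, as the fasting difference in knockout minus that in wild type. None of the 10 genes passed (0 of 10, against 2.11% of all genes tested; limma gave 1 gene, Pcx, at an unadjusted p under 0.05). For Pcx the fasting difference was -0.22 in knockout and 0.33 in wild type, and the interaction was -0.55 (SE 0.15, interval -0.88 to -0.22, adjusted p = 0.0844). It was -0.53 (adjusted p = 0.175) without fasted knockout replicates 1 and 2. Every pairwise fasting difference of knockout arrays lay below every such difference of wild type arrays, which was true in either direction for 22.4% of all genes. For Ppargc1a the fasting difference was -0.64 in knockout and 0.13 in wild type (interaction -0.77, SE 0.36, interval -1.56 to 0.03, adjusted p = 0.266), and without those 2 arrays the interaction was -0.65 (adjusted p = 0.314). Pck1 (-0.09, interval -0.48 to 0.31) and G6pc (-0.12, interval -0.50 to 0.25) had intervals that included 0.

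The order of the group means differed between genes. Ppargc1a ran, high to low, fed knockout, fasted knockout, fasted wild type and fed wild type, and the first step alone was free of overlap. Pcx ran fasted wild type, fed knockout, fed wild type and fasted knockout, and the last 2 of these overlapped. Creb1 ran fasted wild type, fed wild type, fed knockout and fasted knockout, with overlap between the last 2. For G6pc, Slc37a4, Gpt and Got1 all neighbouring groups overlapped. The genes whose centred log2 values lay closest to a member over the 10 arrays were Ankrd13b, Hexa and Pdha1 for Pck1, with root mean square differences of 0.063 to 0.080 log2 units against a median of 0.25 over 12466 named genes. For G6pc they were Tgm5, Fcgrt and Olfm1 (0.055 to 0.076). For Ppargc1a they were Exoc3l4, Sorbs3 and Slc15a4 (0.14 to 0.21, median of all genes 0.44).

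The rest of the pathway was read from lists of its other enzymes, carriers and regulators. The enzymes of the reversible steps shared with glycolysis gave 0 calls in each of the 5 comparisons by limma (6 of 10 entries tested, 0 at an unadjusted p under 0.05). Of 8 tested genes of the opposing glycolytic steps, 1 rose and 3 fell with the fast in wild type, where 21.4% of all genes were called (median -0.45, against -0.02 over all genes). Gckr, the regulatory protein that holds glucokinase, fell by 0.92 on the log2 scale (SE 0.14, adjusted p = 0.00233). Pfkl, the liver phosphofructokinase, fell by 0.59 (SE 0.10, adjusted p = 0.00309), and Slc2a2, the hepatocyte glucose transporter, fell by 0.79 (SE 0.19, adjusted p = 0.0170). Pfkfb2, which makes and breaks down fructose 2,6-bisphosphate, rose by 0.62. In fasted knockout Pfkl was higher than in fasted wild type (0.45, SE 0.09, adjusted p = 0.0143), at 7.82, 7.78 and 7.80 against 7.36, 7.34 and 7.36. This Pfkl difference was 0.44 without fasted knockout replicates 1 and 2.

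Among 17 tested genes of the other enzymes and of substrate entry (24 entries), 3 rose and 1 fell with the fast in wild type (median 0.17), a share near the 21.4% of all genes. The monocarboxylate carrier genes Slc16a7 (0.70, SE 0.11, adjusted p = 0.00301) and Slc16a1 (0.96, SE 0.28, adjusted p = 0.0376) rose, as did Gpd2, the mitochondrial glycerol-3-phosphate dehydrogenase (0.56, SE 0.14). The ubiquitous glucose-6-phosphatase gene G6pc3 fell by 0.79, to 5.46 to 6.08 in fasted wild type, where the array medians were 5.49 to 5.57. Between fasted knockout and fasted wild type, G6pc3 (0.92, SE 0.18) and the aspartate and glutamate carrier Slc25a12 (0.47, SE 0.10) were higher in knockout, and Slc16a1 (-1.01, SE 0.25) and Gpd2 (-0.48, SE 0.12) were lower. Slc16a1 followed the split of the fasted knockout, with 9.54, 9.74 and 10.70 in fasted knockout against 10.98, 11.01 and 11.03 in fasted wild type. Without fasted knockout replicates 1 and 2 its difference was -0.30 (adjusted p = 0.347).

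**Figure D3:**
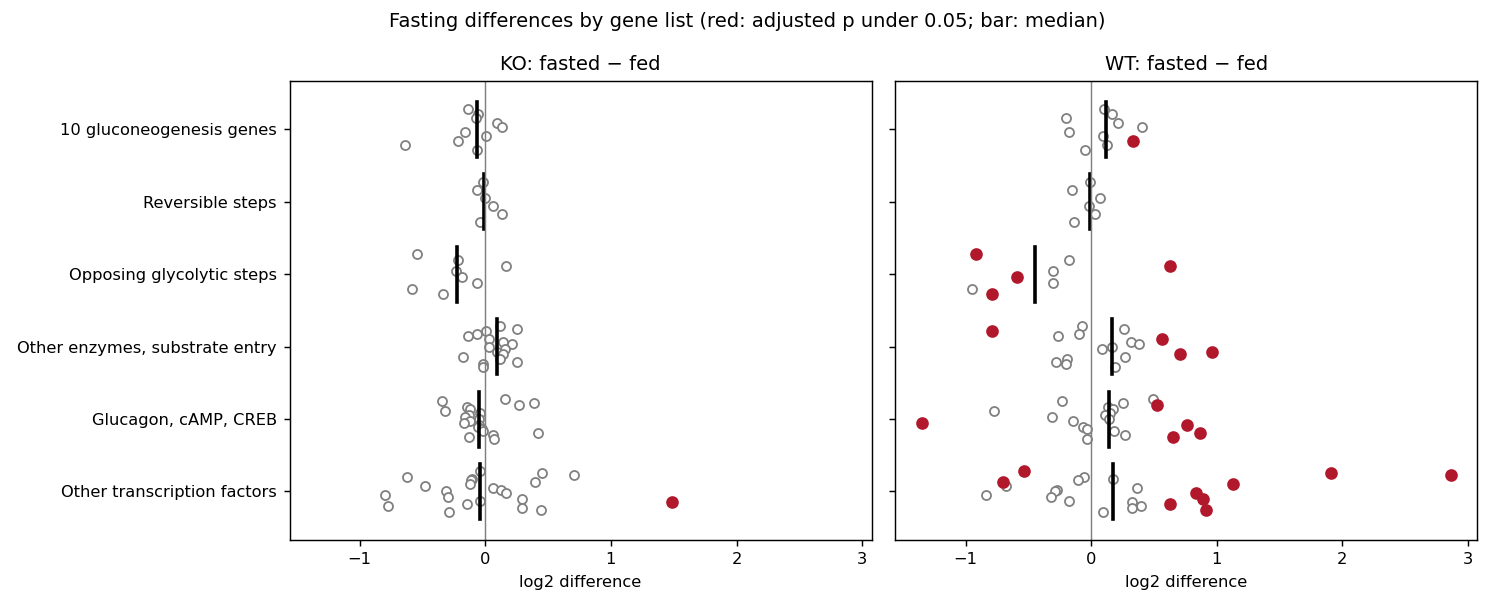
Log2 differences between fasted and fed liver (horizontal axis) in knockout (left) and wild type (right) for the 10 genes and 5 lists of other pathway genes, with 1 point per gene, red where the adjusted p is under 0.05, and a bar at the median. The 10 genes hold 1 red point, Pcx in wild type.

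Of 21 tested genes of glucagon, cAMP and CREB control, 4 rose and 1 fell with the fast in wild type (median 0.14), again near the 21.4% of all genes. The cAMP phosphodiesterase gene Pde4b fell by 1.35 (SE 0.16, adjusted p = 0.000779) and its relative Pde4d rose by 0.76 (SE 0.12, adjusted p = 0.00251). Creb3l3, the liver transcription factor CREBH, rose by 0.52 (SE 0.09, adjusted p = 0.00504) and the salt-inducible kinase gene Sik3, whose family restrains the CRTC coactivators, rose by 0.65 (SE 0.13). In knockout 0 of the 21 were called with the fast (limma, 3 at an unadjusted p under 0.05), against 1.68% of all genes. Between fasted knockout and fasted wild type Sik3 (-0.63, SE 0.12, adjusted p = 0.0131), Crem (-0.58, SE 0.13) and Sik2 (-0.34, SE 0.09) were lower.

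Of 23 tested transcription factors and cofactors of gluconeogenesis, 7 rose and 2 fell with the fast in wild type (median 0.17), where 8.23% of all genes were called higher and 21.4% in either direction. Cebpb, which binds the promoters of Pck1 and G6pc, rose by 1.91 (SE 0.20, adjusted p = 0.000587). Foxo1, the forkhead factor restrained by insulin, rose by 1.13 (SE 0.13, adjusted p = 0.000779), and the nuclear receptor Nr4a1 rose by 0.89. Nr4a1 lay near the array medians of 5.44 to 5.57, at 4.90 and 4.76 in fed and 5.55 to 5.83 in fasted wild type. Cry1, a clock repressor that also restrains cAMP signalling, rose by 2.86 (SE 0.37), from 4.90 and 5.65 in fed wild type, also near the array medians. With the fast in knockout 1 of the 23 was called, Onecut1 (HNF6), which rose by 1.49 (SE 0.21, adjusted p = 0.0278), against 1.68% of all genes. Its difference was 1.32 without fasted knockout replicates 1 and 2, where 1 array stands for that group. The Onecut1 call was lost in 8 of 21 alternatives. One of these took same-numbered arrays as a block (limma adjusted p = 0.0612).

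Foxo1 showed the pattern per array, with 9.51, 9.91 and 9.79 in fasted knockout, 10.25, 10.33 and 10.42 in fasted wild type, 9.88 and 9.83 in fed knockout and 9.29 and 9.11 in fed wild type. Its fasting difference was -0.12 in knockout and 1.13 in wild type, and the interaction was -1.25 (SE 0.19, adjusted p = 0.0264). Cebpb had an interaction of -1.45 (SE 0.29, adjusted p = 0.0426) and Ppargc1b, the relative of Ppargc1a, one of -1.17 (SE 0.24, adjusted p = 0.0426). Pde4b (1.18, SE 0.22, adjusted p = 0.0394) and Pde4d (-0.81, SE 0.17, adjusted p = 0.0440) also passed. Between fasted knockout and fasted wild type Foxo1 (-0.60, SE 0.12, adjusted p = 0.0170), Ppargc1b (-0.60, SE 0.15) and Cry1 (-2.17, SE 0.33) were lower. Without fasted knockout replicates 1 and 2 these differences were -0.54 for Foxo1, -0.84 for Ppargc1b and -1.40 for Cry1. The interactions were then -1.20 for Foxo1, -1.58 for Cebpb, -1.41 for Ppargc1b, 1.32 for Pde4b and -0.73 for Pde4d.

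Over all genes 11.1% were called between fasted knockout and fasted wild type and 2.11% in the interaction. The list calls differed in how they held when 1 array was left out. In wild type fasting, Gckr, Pfkl, Slc16a7, Pde4b, Pde4d, Creb3l3, Cebpb, Foxo1, Cry1 and Nr4a1 were called in all 10 omissions, and Sik3 in 9, with a loss without fed wild type replicate 2. Slc2a2 lost the call in 3 omissions, Gpd2 in 2, Pfkfb2 and G6pc3 in 4 each and Slc16a1 in 5, all of them omissions of wild type arrays. Between fasted knockout and fasted wild type, Cry1 lost it in 0 omissions, Pfkl and Sik3 in 1 (fasted knockout replicate 1) and Foxo1 in 2 (that array and fasted wild type replicate 3). Slc25a12 and G6pc3 lost it in 3, Crem in 4, Slc16a1 and Ppargc1b in 5, Gpd2 in 6 and Sik2 in 7, each with fasted knockout replicate 1 among them. The interaction of Foxo1 was lost in 5 omissions, those of Pde4b and Ppargc1b in 8, that of Pde4d in 9 and that of Cebpb in 10. Onecut1 lost its call in 4, each a knockout array. Without fasted knockout replicates 1 and 2 the lists held 0 calls between fasted knockout and fasted wild type and 0 in the interaction by limma, where all genes gave 0 too.

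**Figure D4:**
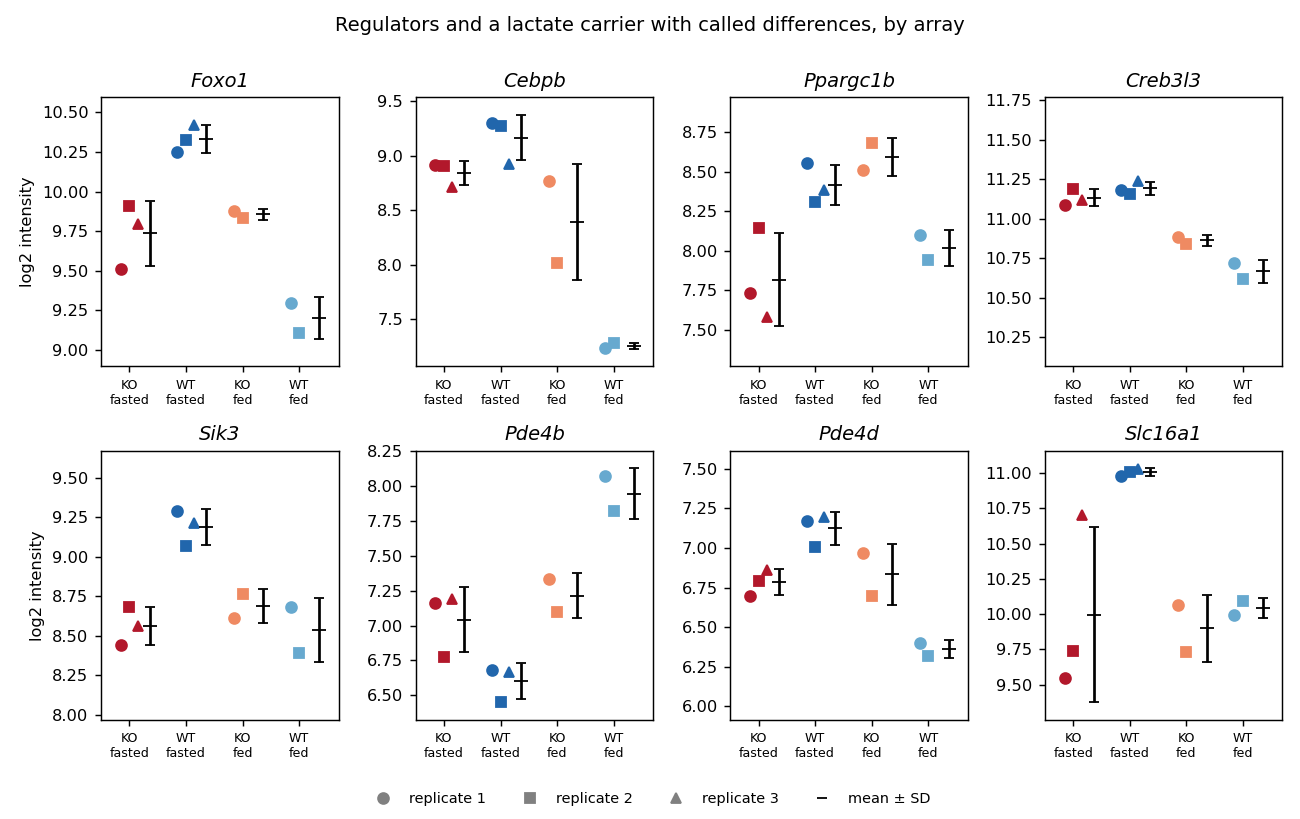
Log2 intensity (vertical axis) of 7 regulators of gluconeogenesis and the carrier gene Slc16a1 on each array, by group (horizontal axis), with group mean and SD in black. Foxo1 is highest in the 3 fasted wild type arrays and lowest in the 2 fed wild type arrays, with all knockout arrays between them; Slc16a1 splits the fasted knockout arrays.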

How the data were processed

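Liver RNA of 10 mouse samples was measured on 1-colour Affymetrix Mouse Gene 2.1 ST arrays. The deposited values are normalized intensities, made by the authors with RMA in Affymetrix Expression Console per the submitters' processing notes (versions not given in the sources used here). The values are on a linear scale, so log2 was taken. Of 41345 probe sets, 23521 carried 1 gene symbol in the platform annotation, 1814 several and 16010 none. Probe sets had to exceed the array median on at least 2 arrays. The brightest of those stood for its gene, leaving 13942 genes (519 with more than 1). limma 3.58.1 (R 4.3.3) fitted 4 group means with empirical Bayes moderation over all 10 arrays. p-values were adjusted over all genes by Benjamini-Hochberg, and genes with an adjusted p under 0.05 were called. The script was tested on simulated data.

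The members and lists were chosen with earlier results of these data known. All 10 members were named. From each list, up to 4 called genes per comparison with the smallest p and no overlap between groups were named, and for the interaction those called. The number of arrays limits the precision. No pairing is stated, and same-numbered arrays were not treated as paired in the main fit. Deviations from the group mean correlated above 0.1 in 1 of 13 same-numbered pairs (range -0.17 to 0.11). The deviations of the 2 fed arrays of a genotype mirror each other, so these values are not independent and cannot exclude pairing. Alternatives covered normalization, filter, offset, probe sets, moderation, weights, block, samples fitted and omissions.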

Additional observations from a re-analysis of the deposited data

Results flagged for a closer look

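Pcx was flagged because its arrays parted in opposite directions with the fast in the 2 genotypes. Every fasted knockout array lay below every fed knockout array, and every fasted wild type array lay above every fed wild type array. In either direction, groups did not overlap for 36.8% of all genes with the fast in knockout and 52.7% in wild type. The fall of Pcx in knockout was not called (limma adjusted p = 0.293). The genotype difference of Pcx was likewise opposite with and without food. Values were lower in fasted knockout than in fasted wild type and higher in fed knockout than in fed wild type, again without overlap. Of all genes, 33% did not overlap between the fasted groups and 39.9% between the fed groups. The fed difference of Pcx was not called (limma adjusted p = 0.754). Both opposite patterns are 1 quantity, the interaction of -0.55 on the log2 scale (limma adjusted p = 0.0844), which did not pass the test.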

How the results depend on the processing

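The 3 calls among the 10 genes kept their direction in all 21 alternatives, and 0 of the 3 stayed called in all. Pcx in wild type fasting was called in 7 of 21, Pcx between fasted knockout and fasted wild type in 9 and Creb1 there in 12. The count of 1 gene in wild type fasting became 0 with each array centred, with no filter, with the replicate block, with only the groups of the contrast fitted and without fasted knockout replicates 1 and 2, and became 2 with robust, trended moderation (Fbp1 added). It was 0 to 1 over omissions of 1 array. The count of 2 between fasted knockout and fasted wild type became 1 with centring and 0 with no filter, the replicate block, only the groups of the contrast or without fasted knockout replicates 1 and 2, and was 0 to 2 over omissions. The interaction count of 0 became 1 (Pcx) with the stricter filter and with robust, trended moderation. Over all genes, the 234 calls of knockout fasting became 10 with no filter, 452 with the stricter filter, 504 with robust, trended moderation, 16 with only its groups, 1 to 170 over omissions and 0 with the replicate block (limma, 2310 at an unadjusted p under 0.05). The 1549 calls between fasted knockout and fasted wild type became 654 with no filter, 850 with only their groups, 437 to 1501 over omissions and 0 without fasted knockout replicates 1 and 2 (2547 at an unadjusted p under 0.05). The 294 interaction calls became 4 with no filter, 501 with the stricter filter, 520 with robust, trended moderation, 137 with the replicate block, 2 to 367 over omissions and 0 without those 2 arrays (2548 at an unadjusted p under 0.05). The 12 fed calls became 4 with no filter, 24 with robust, trended moderation, 2 without those 2 arrays, 0 with the replicate block (1160 at an unadjusted p under 0.05) or only their groups (1215), and 0 to 17 over omissions. The 2990 calls of wild type fasting became 1328 without fed wild type replicate 1 and 1936 without replicate 2. Without fasted knockout replicates 1 and 2, 1 array stands for that group and is assumed to vary like the others; beyond fewer arrays or other genes tested, the cause was not tested.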

Other observations

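Slc2a2, the hepatocyte glucose transporter gene, split the fasted knockout arrays in the same way as Slc16a1. Its log2 intensity was 11.48, 11.45 and 10.83 in fasted knockout replicates 1, 2 and 3, against 10.83, 10.63 and 10.53 in fasted wild type. It was 11.53 and 11.64 in fed knockout and 11.52 and 11.38 in fed wild type, so that fasted knockout replicates 1 and 2 lay at the fed level. Dbp, a clock output gene, was 10.05, 9.80 and 6.00 in fasted knockout, against 6.07, 6.58 and 6.64 in fasted wild type. Cry1 was 5.43, 5.73 and 6.74 in fasted knockout, against 8.35, 8.11 and 7.97 in fasted wild type, and fasted knockout replicate 3 stayed below all fasted wild type arrays. Slc2a2 and Dbp in their split arrays were named after their values were seen.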
